A study of Mus musculus with 5 samples.

Results

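The mitochondrial carrier genes of the SLC25 family were followed in RNA from the brown adipose tissue (BAT) of cold-exposed mice with and without ATF4. Members were the protein-coding genes with an Slc25a symbol and a number, together with Ucp2 and Ucp3, which belong to the same family under older names. They came to 49 of the 52022 genes measured, of which 9 carry amino acids and 40 carry other substrates or have no settled substrate. Of the 49, 43 had at least 10 estimated counts in at least 2 mice and were tested. The 6 that were not tested were Slc25a2, Slc25a18, Slc25a21, Slc25a31, Slc25a41 and Slc25a54, with at most 10 counts in any mouse.

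The series held 5 libraries, each from the interscapular BAT of 1 mouse: 3 ATF4 BKO mice and 2 WT mice. ATF4 BKO mice were Atf4 fl/fl mice that carried the Tg(Ucp1-cre)1Evdr transgene, and WT mice were Atf4 fl/fl littermates without Cre. All were on the C57Bl/6J background, labelled male, 10 to 12 weeks old and fed ad libitum, and had spent 3 days at 4 °C after acclimation at 30 °C. The Ucp1 promoter drives Cre in thermogenic adipocytes, so the other cells of the tissue keep an intact Atf4 gene. In whole tissue, fewer cells of a type and less RNA per cell cannot be told apart. With 2 WT mice, an exact permutation test of a single value cannot give a one-sided p under 0.1, the share of 1 of the 10 ways to choose 3 mice of 5.

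Mitochondrial carriers are small proteins of the inner mitochondrial membrane, most of which exchange one solute for another between the cytosol and the matrix. They move ADP and ATP, phosphate, acylcarnitine, amino acids and cofactors, and UCP1, which makes brown fat produce heat, is a relative of them. ATF4 is a transcription factor of the integrated stress response, known for its control of amino acid uptake and synthesis and of mitochondrial one-carbon enzymes, so carriers of amino acids were set against the rest of the family.

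Values below are given for ATF4 BKO replicates 1, 2 and 3 in that order, then for WT replicates 1 and 2. Libraries held 24698337 to 32452751 estimated counts, and Atf4 had 739, 1478 and 697 counts in ATF4 BKO mice against 9028 and 7674 in WT mice. ATF4 BKO replicate 1 went against its label of sex, with 4598 counts of Xist where the other mice had at most 7 and 34 Y-linked counts against 3284 to 4476. For 19 of 20 skeletal muscle markers both WT mice exceeded every ATF4 BKO mouse, and their summed level was 41.0 to 58.1 CPM (counts scaled to library size with TMM factors) in ATF4 BKO mice, 145 in WT replicate 1 and 2705 in WT replicate 2. The 10 brown adipocyte markers, which sum to 19570 to 25790 CPM, were all detected in every mouse. Summed over their lists, erythroid markers held 1478, 2029 and 1347 CPM against 3313 and 1705, endothelial markers 990.5, 941 and 1227 against 764 and 886, neuron and Schwann cell markers 30.2, 14.8 and 11.01 against 11.7 and 7.41, and liver markers at most 1.59. Library names began with S1 (ATF4 BKO replicates 1 and 2, WT replicate 1) or S2 (ATF4 BKO replicate 3, WT replicate 2). The sources used here do not say what the prefix marks, so differences within each prefix are given beside the pooled ones for many of the named carriers, though not for all.

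No carrier gene was called different between genotypes. edgeR's quasi-likelihood test called 0 of the 43 members at an adjusted p under 0.05, with a lowest adjusted p of 0.911. It called 1 of 16450 genes in all (0.00608%), and that gene was higher in ATF4 BKO mice. The deleted gene Atf4, lower in every ATF4 BKO mouse, was thus not called. An adjusted p over the threshold in this test is therefore no evidence that a carrier was unchanged. DESeq2 called 0 members, with a lowest adjusted p of 0.331 for Slc25a4, against 121 genes in all (0.736%). At an unadjusted p under 0.05 edgeR counted 1 member, Slc25a4, against 5.23% of all genes. Log2 fold changes, ATF4 BKO over WT, ran from -0.79 to 0.86, with 24 below 0 and 19 above, and the median was -0.04 against 0.01 over all genes tested. For 35 of the 43 members the 95% interval of the log2 fold change lay within 1 of 0 on either side, so that a change of more than 2-fold lay outside it. For the other 8, among them Slc25a12, Slc25a13 and Slc25a1, the spread between mice left wider intervals.

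**Figure D1:**
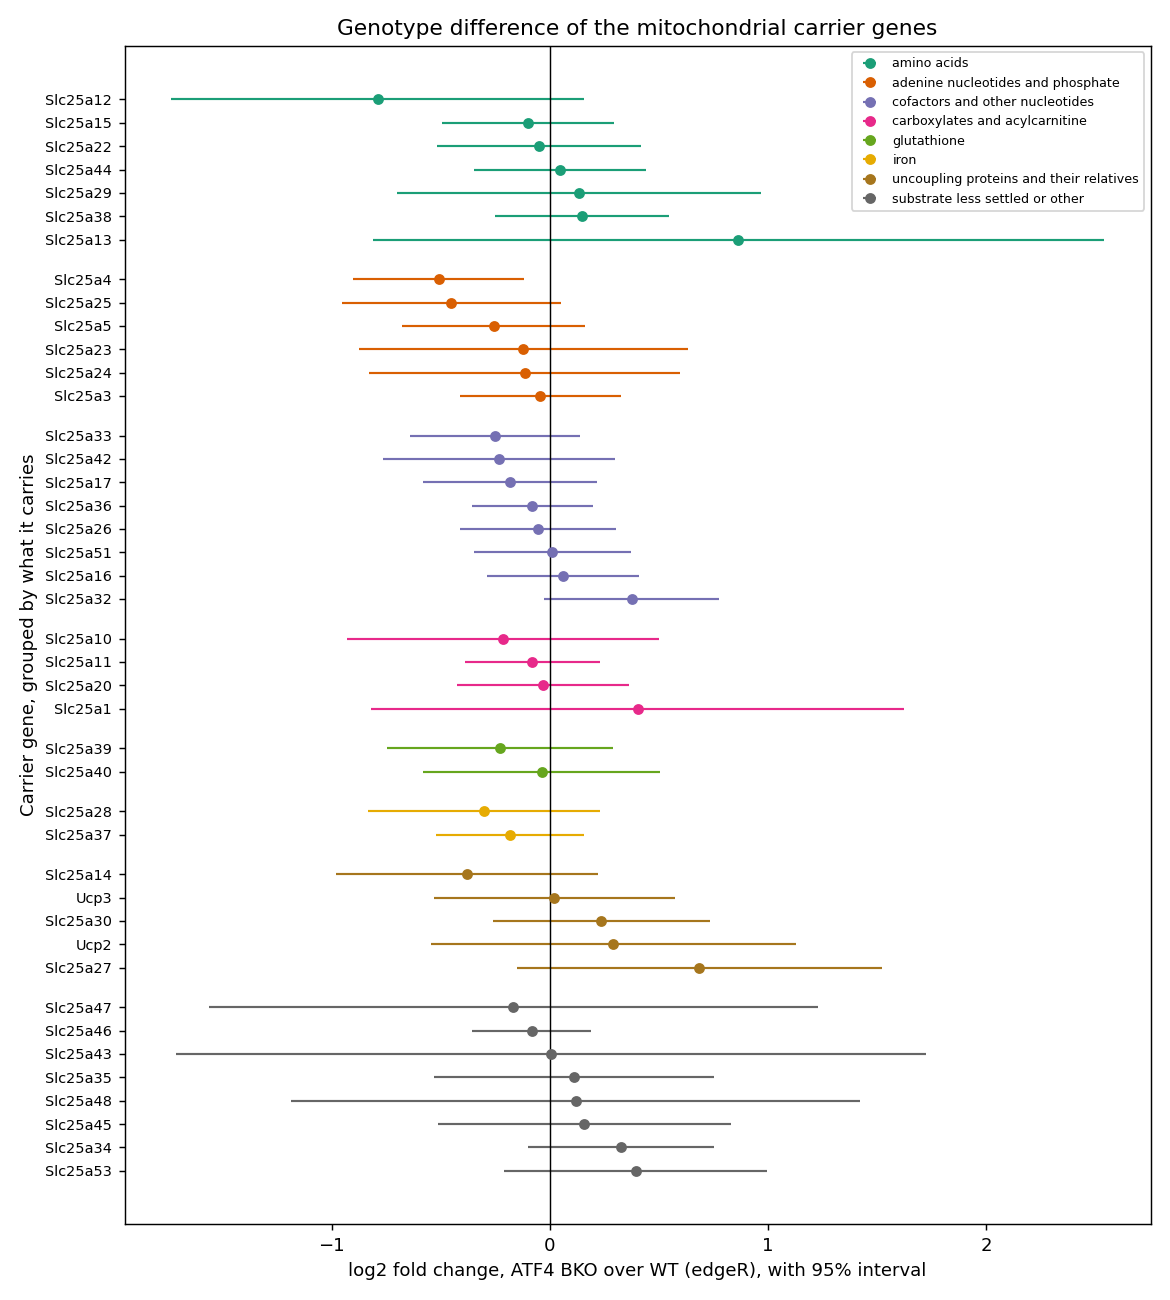
Log2 fold change (ATF4 BKO over WT, edgeR) of the tested carrier genes reported here with its 95% interval as a line, grouped and coloured by what each protein carries. Only the interval of Slc25a4, from -0.90 to -0.12, leaves out 0, and its adjusted p was 0.911.

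Counts of members whose CPM did not overlap between genotypes stood near the background. Every ATF4 BKO mouse lay below both WT mice for 5 members (11.6%), against 10.6% of all genes tested. Every ATF4 BKO mouse lay above both WT mice for 3 members (6.98%), against 8.95%. The 5 were Slc25a4, Slc25a14, Slc25a25, Slc25a33 and Slc25a46, and the 3 were Slc25a27, Slc25a32 and Slc25a53. The split moved with the scale. With library totals alone as the scale it was 13 lower and 3 higher, with all genes at 19.4% and 3.99%. On TPM, the deposited level per transcript length, it was 16 lower (37.2%) and 0 higher, with all genes at 24.9% and 3.02%. Without ATF4 BKO replicate 1 it was 6 lower and 4 higher, and all genes then stood at 16.4% in either direction.

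In levels per length, a few carriers led the family. Slc25a5, the adenine nucleotide translocase 2 that exchanges ADP for ATP, led with 479, 624 and 573 TPM in ATF4 BKO mice against 829 and 676 in WT mice. Of its 31-base stretches, 49.4% also occur in other genes, and Gm5560 shares more of them than any other gene, so its estimate is shared with near-identical sequence. Slc25a39, the mitochondrial glutathione carrier, had 594, 453 and 554 against 788 and 654 TPM. Slc25a20, which brings acylcarnitine into the matrix for fatty acid oxidation, had 524, 510 and 580 against 617 and 631 TPM. These top 3 overlapped one another in level across mice, and for each of them both WT mice exceeded every ATF4 BKO mouse on the TPM scale. Below them, Slc25a3, the phosphate carrier, had a mean of 400.1 TPM over all mice, Slc25a51, the NAD carrier, 258, and Slc25a4 194. The lowest tested member, Slc25a43, had a mean of 0.577 TPM.

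**Figure D2:**
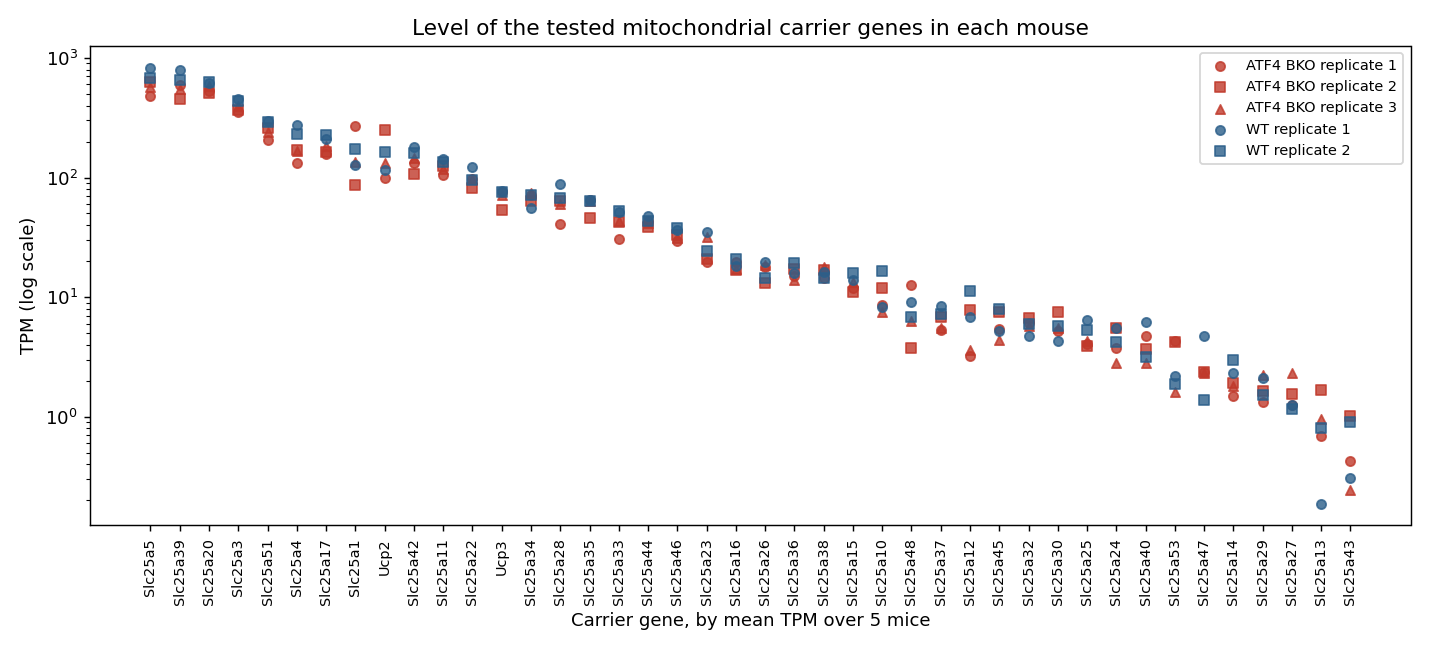
Level of the tested carrier genes reported here (TPM, log axis) in each of the 5 mice, ordered by the mean over mice; red points are ATF4 BKO and blue points WT. Means run from 636 TPM for Slc25a5 down to 0.577 TPM for Slc25a43, and for the leading carriers the blue points tend to lie above the red.

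The summed TPM of the 49 members was 3994, 3972 and 4241 in ATF4 BKO mice against 5071 and 4831 in WT mice. The sums did not overlap between genotypes. TPM sums to the same total in every mouse, and the step from CPM to TPM moved genes by unlike amounts. Slc25a51 had a log2 fold change of 0.01 on CPM and -0.33 on log2(TPM + 1), and Slc25a26 had -0.05 and -0.04. From CPM with TMM factors to TPM, the log2 difference between genotypes moved by a median of -0.18 over 12170 genes and by -0.18 over the members among them. On the TPM scale the median difference was -0.26 for the members and -0.19 for all genes. On the CPM scale 5 of the leading carriers had log2 fold changes of -0.26 (Slc25a5), -0.23 (Slc25a39), -0.03 (Slc25a20), -0.04 (Slc25a3) and 0.01 (Slc25a51), with standard errors of 0.15 to 0.21, and 0 of the 5 passed edgeR's test (lowest adjusted p 0.920). Single mice moved the first 2 of these: Slc25a5 was -0.05 without WT replicate 1 and -0.44 without WT replicate 2, and Slc25a39 was -0.06 and -0.37, with -0.07 without ATF4 BKO replicate 2 and -0.36 without ATF4 BKO replicate 1. Within S1 and S2, Slc25a5 was -0.47 and 0.01, Slc25a39 -0.42 and -0.03 and Slc25a20 -0.13 and 0.12. Slc25a3 was -0.20 and 0.19, and Slc25a51 -0.04 and 0.12. With the mean level of the muscle markers as a covariate, Slc25a5 was -0.55 and Slc25a39 -0.63. That level (mean log2 CPM) was 0.04, 1.11 and -0.175 in ATF4 BKO mice against 2.36 and 6.42 in WT mice. It thus separated the genotypes, and values with this covariate, here and below, cannot tell muscle RNA from genotype.

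The carriers of amino acids and the other carriers had medians on either side of 0, both near it. For amino acid carriers the median log2 fold change was 0.05 over 7 tested members, 3 below 0 and 4 above, against -0.05 over 36 tested others, 21 below and 15 above. In 0 of the 7 did the genotypes separate, against 5 lower and 3 higher among the others. Without ATF4 BKO replicate 1 the medians were -0.04 and -0.08. Within prefix S1 they were -0.13 and -0.13, and within S2 0.20 and 0.05. Members are not replicates, so the medians were not tested against each other.

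Slc25a22, a glutamate carrier, was the most abundant gene of the amino acid group, with 210, 159 and 206 CPM in ATF4 BKO mice against 224 and 173 in WT mice. The log2 fold change came to -0.05 (SE 0.19, edgeR adjusted p = 0.980). Slc25a44, which takes branched-chain amino acids into brown fat mitochondria, had 140, 108 and 129 against 132 and 112 CPM, a log2 fold change of 0.05 (SE 0.16, 95% interval -0.35 to 0.44, edgeR adjusted p = 0.980). The genotypes overlapped for both carriers, and the sign of the difference turned with the mouse left out. It also turned with the prefix, at -0.295 within S1 and 0.255 within S2 for Slc25a22, and -0.10 and 0.20 for Slc25a44. Slc25a15, the ornithine carrier of the urea cycle, had 37.4, 30.5 and 40.6 against 37.0 and 40.6 CPM, with a log2 fold change of -0.10 (SE 0.16, edgeR adjusted p = 0.961). Slc25a38, which brings glycine in for the first step of haem synthesis, had 17.1, 16.7 and 20.6 against 17.3 and 15.5 CPM, with a log2 fold change of 0.15 (SE 0.16, edgeR adjusted p = 0.942). Neither group of values stood clear of the other for these carriers. Slc25a29, a carrier of basic amino acids, was low in every mouse, at 2.25, 2.24 and 3.20 against 2.91 and 1.77 CPM.

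Slc25a12 and Slc25a13 encode the aspartate-glutamate carriers aralar and citrin, which serve the malate-aspartate shuttle, and they held the lowest and the highest log2 fold change of the family. Slc25a12, the form known from muscle and brain, had 7.24, 12.8 and 6.87 CPM in ATF4 BKO mice against 10.6 and 20.4 in WT mice. These sums are largely not from coding transcripts. Slc25a12-207, marked for nonsense-mediated decay, held 69.3%, 59.8% and 62.8% of the gene's TPM against 44.5% and 60.7%. The noncoding Slc25a12-205 held 14.5%, 13.7% and 15.7% against 22.3% and 24.9%. The log2 fold change of the whole gene came to -0.79 (SE 0.39, 95% interval -1.74 to 0.16, edgeR adjusted p = 0.911). The genotypes overlapped, and the highest value was that of WT replicate 2, the mouse with the most muscle RNA. Without WT replicate 2 its log2 fold change was -0.26, without WT replicate 1 it was -1.18, and without ATF4 BKO replicate 2 it was -1.12. With the mean level of the 20 muscle markers as a covariate it was 0.40, and within prefixes it was -0.13 (S1) and -1.50 (S2). Slc25a13 had 1.68, 3.24 and 1.31 against 0.443 and 1.83 CPM, a log2 fold change of 0.86 (SE 0.69, 95% interval -0.81 to 2.54, edgeR adjusted p = 0.931). Its groups overlapped as well, and it rested on few counts: without WT replicate 1, the lowest mouse, the log2 fold change was 0.19, without WT replicate 2 it was 2.20, and without ATF4 BKO replicate 2 it was 0.41. With the muscle covariate it was 3.42 (edgeR adjusted p = 0.114), and within prefixes it was 1.597 (S1) and -0.36 (S2). As the muscle level separated the genotypes, that covariate cannot tell muscle RNA from genotype, and the part of muscle RNA in either value was not tested.

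**Figure D3:**
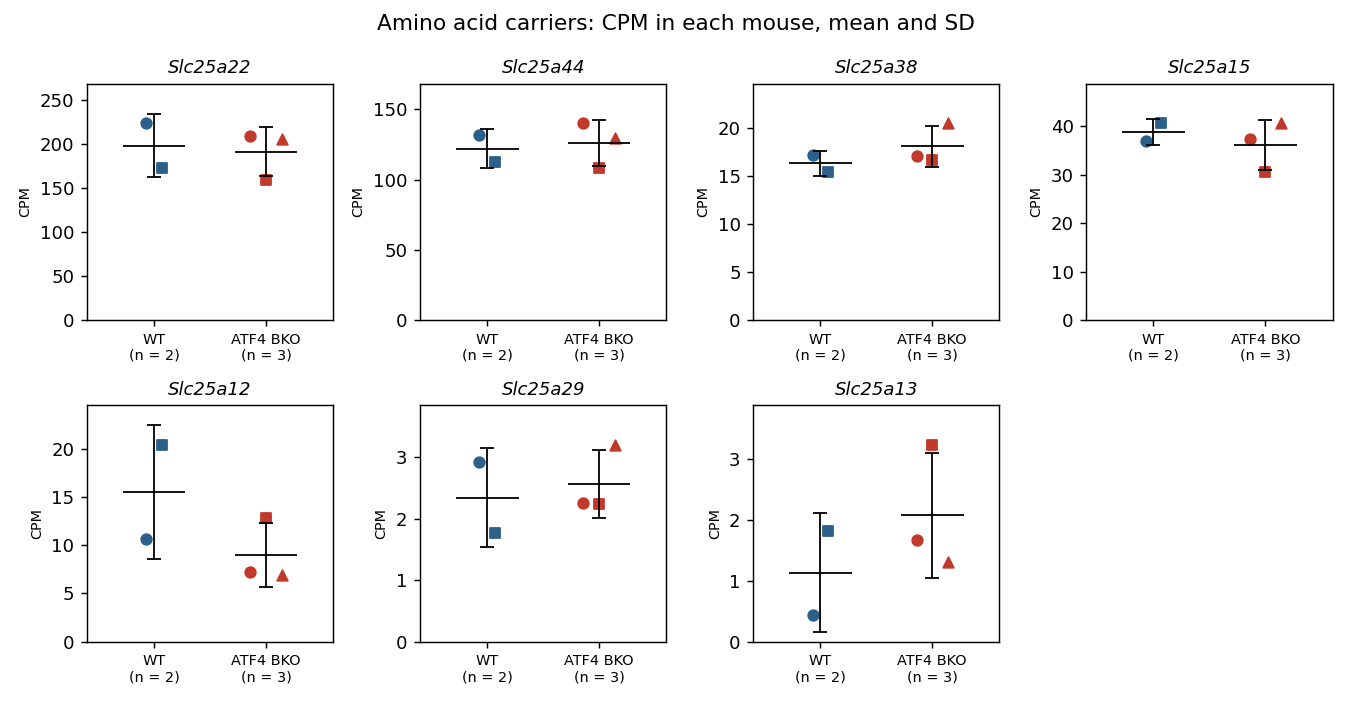
CPM of the 7 tested amino acid carriers in each mouse (points; circles, squares and triangles are replicates 1, 2 and 3), with the mean as a line and the SD as bars, WT n = 2 and ATF4 BKO n = 3, axes from 0. Points of the genotypes overlap in all 7 panels, and WT replicate 2 is highest for Slc25a12 at 20.4 CPM.

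All 6 tested carriers of adenine nucleotides and phosphate lay below 0 on the log2 scale (median -0.19), where 48.8% of all genes did. The genotypes did not overlap for 2 of them (33.3%), both lower, against 10.6% of all genes. The shared direction depended on single mice. Without WT replicate 1, Slc25a3, Slc25a23 and Slc25a24 were above 0 (0.06, 0.19 and 0.14), Slc25a5 was -0.05, and Slc25a4 and Slc25a25 stayed below 0. Without ATF4 BKO replicate 2, Slc25a3 and Slc25a23 were 0.03 and 0.06, and without ATF4 BKO replicate 3 Slc25a24 was 0.08. All 6 stayed below 0 without ATF4 BKO replicate 1 and without WT replicate 2. Within S2, Slc25a3, Slc25a5 and Slc25a23 were above 0 (0.19, 0.01 and 0.65) and the rest below. Slc25a4, the adenine nucleotide translocase 1 typical of heart and muscle (chr8:46206797-46211284, minus strand, GRCm38), had 219, 245 and 265 CPM in ATF4 BKO mice against 383 and 309 in WT mice. Each ATF4 BKO mouse lay below both WT mice. Its log2 fold change was -0.51 (SE 0.16, 95% interval -0.90 to -0.12), with an unadjusted p of 0.0189 and an adjusted p of 0.911 in edgeR. The size depended on which WT mouse was used. It was -0.33 without WT replicate 1 and -0.67 without WT replicate 2, -0.44 without ATF4 BKO replicate 1, -0.79 with the muscle covariate, and -0.72 within S1 against -0.22 within S2. The higher Slc25a4 value was in WT replicate 1 and the higher muscle level in WT replicate 2. Both WT mice exceeded every ATF4 BKO mouse in both levels. The part of muscle RNA in the Slc25a4 values was not tested.

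Slc25a25, a calcium-regulated ATP-Mg/phosphate carrier known as SCaMC-2, had 10.4, 9.50 and 8.99 CPM in ATF4 BKO mice against 15.4 and 10.97 in WT mice. The groups did not overlap, though WT replicate 2 lay close to the ATF4 BKO mice. Its log2 fold change was -0.45 (SE 0.21, edgeR adjusted p = 0.911), -0.17 without WT replicate 1, -0.69 without WT replicate 2, -0.87 with the muscle covariate, and -0.60 and -0.27 within S1 and S2. Slc25a23 and Slc25a24, its calcium-regulated relatives, had -0.12 and -0.12.

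Promoters of the family were searched for letters bound by ATF4 and its partners. RefSeq windows (GRCm38.p6) of 300 bases, from 250 before to 50 after a start, matched 38 of the 49 members in 48 windows. The C/EBP-ATF composite element TGATGNAA, on either strand, was in 0 of these 48 windows and in 3.97% of all 32851 windows. The cyclic AMP response element TGACGTCA, which reads the same on both strands, was in 2 of 48 (4.17%) and in 1.79% of all. The motifs had no overlap in the members' windows, since the first had no match there. The 2 stretches are shown, minus strand, with the motif in capitals, because 1 of them belongs to Slc25a25, whose genotypes separated; Slc25a36 was chosen for its motif, after its values were seen. The Slc25a25 motif lay 150 bases before a start inside the gene (chr2:32424149-32424276), in 1 of the gene's 3 windows, and the Slc25a36 motif lay 161 bases before its start (chr9:97111135-97111262).
Slc25a25: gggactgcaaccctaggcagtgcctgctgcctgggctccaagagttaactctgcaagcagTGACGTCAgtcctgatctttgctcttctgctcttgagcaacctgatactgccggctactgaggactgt
Slc25a36: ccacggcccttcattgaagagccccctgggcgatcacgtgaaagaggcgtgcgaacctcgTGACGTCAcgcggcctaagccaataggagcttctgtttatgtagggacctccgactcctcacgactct
Slc25a36, a pyrimidine nucleotide carrier, had 49.9, 51.0 and 48.99 CPM in ATF4 BKO mice against 50.5 and 55.1 in WT mice, and these overlapped. A match is a description of letters, and binding was not measured.

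Among the 9 carriers of cofactors and other nucleotides, 5 lay below 0 and 4 above on the log2 scale (median -0.05). Slc25a32, which brings folate into mitochondria, had 29.1, 22.0 and 25.6 CPM in ATF4 BKO mice against 20.1 and 19.3 in WT mice. Every ATF4 BKO mouse lay above both WT mice. Its log2 fold change was 0.38 (SE 0.16, 95% interval -0.03 to 0.78, edgeR adjusted p = 0.911), and it was 0.32 within S1, 0.40 within S2, 0.27 without ATF4 BKO replicate 1 and 0.22 with the muscle covariate. On the TPM scale the genotypes overlapped, at 6.10, 6.67 and 5.68 against 4.72 and 5.97, and the difference on log2(TPM + 1) was 0.18. Slc25a33, a pyrimidine nucleotide carrier, had 49.4, 61.1 and 67.6 against 71.6 and 69.8 CPM. Its groups were apart by little, with a log2 fold change of -0.25 (SE 0.16, edgeR adjusted p = 0.920), -0.14 without ATF4 BKO replicate 1, and -0.38 and -0.05 within S1 and S2, and 13.5% of its 31-base stretches occur in other genes. Slc25a17, Slc25a42, Slc25a16 and Slc25a26, which carry coenzyme A, its precursors or S-adenosylmethionine, ran from -0.23 to 0.06.

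The uncoupling proteins and their relatives had the highest median, 0.24 over 5 genes, 4 of them above 0. Slc25a27 (UCP4, best known from neurons) had 3.00, 3.27 and 5.39 CPM in ATF4 BKO mice against 2.63 and 2.21 in WT mice, and Slc25a14 (UCP5) had 1.90, 2.10 and 2.02 against 2.69 and 2.54. The genotypes did not overlap for either gene, and the directions were opposite. The mouse highest for Slc25a27 was ATF4 BKO replicate 3, and the one highest for neuron and Schwann cell markers was ATF4 BKO replicate 1. The log2 fold changes were 0.69 (SE 0.34, edgeR adjusted p = 0.911; 0.22 within S1, 1.12 within S2; 0.38 without ATF4 BKO replicate 3 and 0.30 with the muscle covariate) and -0.38 (SE 0.24, edgeR adjusted p = 0.920; -0.35 and -0.27). Ucp2 and Ucp3 lay outside the rule for named genes and are given because they are members by name, with their values already seen. Ucp2, which in this tissue is also made by immune cells, had 116, 251 and 153 against 120 and 163 CPM. The 10 macrophage and lymphocyte markers summed to 697, 1177 and 456 CPM against 155 and 1002. ATF4 BKO replicate 2 was the highest mouse for both, but the lowest was ATF4 BKO replicate 1 for Ucp2 and WT replicate 1 for the markers. The part of immune cells in the Ucp2 values was not tested. Ucp3, an uncoupling protein of muscle and brown fat, had 163, 99.3 and 148 against 140 and 130 CPM, with a log2 fold change of 0.02 (SE 0.23, edgeR adjusted p = 0.993).

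Of the carriers with a less settled substrate, 6 of 8 tested had a log2 fold change above 0, with a median of 0.12. Slc25a46, an outer-membrane member tied to mitochondrial shape, had 117, 115 and 121 CPM in ATF4 BKO mice against 126 and 124 in WT mice, and Slc25a53 had 3.49, 3.88 and 3.00 against 2.66 and 2.596. The genotypes did not overlap for either gene. For Slc25a46 the log2 fold change was -0.08 (SE 0.11, edgeR adjusted p = 0.948; -0.11 within S1, -0.04 within S2), and for Slc25a53 it was 0.39 (SE 0.25, edgeR adjusted p = 0.920; 0.40 and 0.18). Slc25a53 and Slc25a14 lie on the X chromosome, as do Slc25a5 and Slc25a43. Without ATF4 BKO replicate 1 the log2 fold changes of these genes were, in that order, 0.39, -0.34, -0.19 and 0.12.

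**Figure D4:**
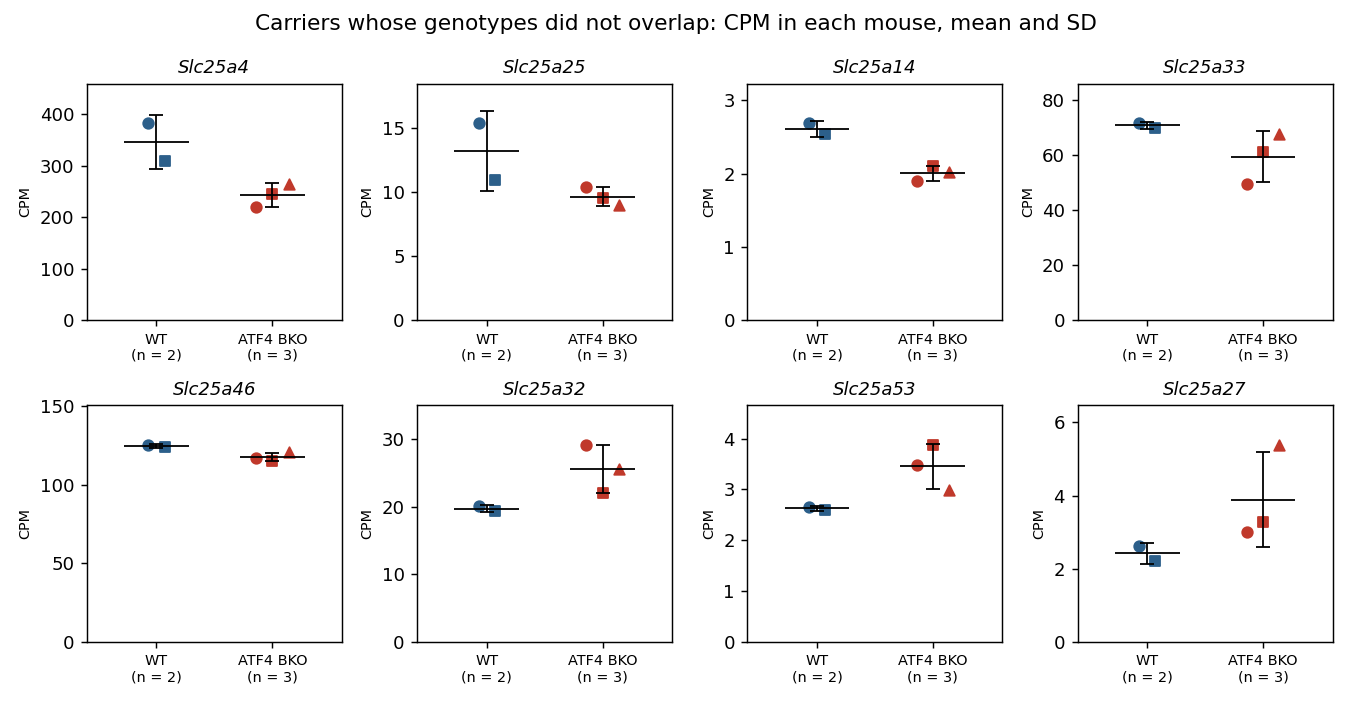
CPM of the 8 carriers whose genotypes did not overlap, in each mouse (points; circles, squares and triangles are replicates 1, 2 and 3), with the mean as a line and the SD as bars, WT n = 2 and ATF4 BKO n = 3, axes from 0. Slc25a4, Slc25a25, Slc25a14, Slc25a33 and Slc25a46 were lower in ATF4 BKO mice and Slc25a32, Slc25a53 and Slc25a27 higher, none past edgeR's adjusted threshold.

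The remaining groups were small. The carriers of carboxylates and acylcarnitine had a median of -0.06 over 4 tested genes. Slc25a1, the citrate carrier that supplies acetyl units for lipid synthesis, lay outside the rule for named genes and was chosen after its values were seen: it had 323, 93.0 and 161 CPM in ATF4 BKO mice against 126 and 165 in WT mice. ATF4 BKO replicate 1 was the highest and replicate 2 the lowest, the same mice that were highest and lowest for Acly, the enzyme that splits citrate in the cytosol (2919, 235 and 965 against 646 and 850 CPM). Without ATF4 BKO replicate 1, the mouse that went against its label of sex, the log2 fold change of Slc25a1 turned from 0.40 to -0.19. The iron carriers Slc25a28 and Slc25a37 (mitoferrin 2 and 1) had -0.30 and -0.18, and the glutathione carriers Slc25a39 and Slc25a40 had -0.23 and -0.04, all with overlapping genotypes. Slc25a37, known for its role in red cell precursors, had 25.2, 26.4 and 24.2 CPM against 31.2 and 26.3, and its highest mouse, WT replicate 1, also had the highest sum of erythroid markers; their part in the value was not tested.

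Other ways of moving solutes across the mitochondrial membranes also gave no call. Of 24 further transport genes (UCP1, the pyruvate carrier, sideroflexins, porins, the calcium uniporter and others), edgeR and DESeq2 called 0, with 9 below 0 and 15 above and a median of 0.04. Ucp1 itself had 13060, 9762 and 13080 CPM in ATF4 BKO mice against 9916 and 11380 in WT mice. The genotypes separated for 1 of the 24 (4.17%), Vdac3, an outer-membrane porin, which had 107, 112 and 106 against 164 and 141 CPM.

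Enzymes that use or supply the carriers' substrates included genes at lower levels in ATF4 BKO mice. Of 16 such enzymes, every ATF4 BKO mouse lay below both WT mice for 7 (43.8%), against 11.6% of the carriers and 10.6% of all genes, and above them for 0, and the difference between these shares was not tested. The 7 were Got1 and Got2, the aspartate aminotransferases of the cytosol and mitochondria, Mdh1, the cytosolic malate dehydrogenase, Aldh18a1, which starts proline synthesis, Alas1, which starts haem synthesis, and Shmt2 and Mthfd2 of mitochondrial one-carbon metabolism. edgeR called 0 of the 16 and DESeq2 called 1, Mthfd2, which had 3.67, 6.09 and 3.23 CPM in ATF4 BKO mice against 61.9 and 25.6 in WT mice (log2 fold change -3.33, SE 0.45, edgeR adjusted p = 0.671, DESeq2 adjusted p = 1.75e-09). Shmt2 and Mthfd2 work on the folate that Slc25a32 brings in, and Slc25a32 lay the other way on the CPM scale, higher in every ATF4 BKO mouse, but overlapped on TPM. Got2 had 49.1, 54.1 and 51.1 against 140 and 66.7 CPM, and Got1 had 111, 147 and 142 against 221 and 154. All 7 were higher in WT replicate 1 than in WT replicate 2, and without WT replicate 1 their log2 fold changes shrank but stayed below 0. Got2 was then -0.36 in place of -1.01, Shmt2 -0.15 for -0.69, Mdh1 -0.18 for -0.51 and Got1 -0.20 for -0.49. Alas1 was -0.19 for -0.24, Aldh18a1 -0.80 for -1.66 and Mthfd2 -2.55 for -3.33. The list was chosen with earlier results of these data known and includes one-carbon enzymes, for whose control ATF4 is known.

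Below the level of whole genes, the mix of transcripts was described as each transcript's share of its gene's TPM, for 102 transcripts (mean at least 1 TPM) of 26 carriers (mean at least 5 TPM). Both WT mice exceeded every ATF4 BKO mouse in the share of 14 (13.7%), against 10.6% of 23260 transcripts, and the reverse held for 15 (14.7%), against 11.7%. Shares within a gene sum to a whole, so that one transcript's rise is another's fall, and Kallisto assigns reads among overlapping transcripts by estimate. The transcripts named next were chosen after their values were seen.

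Slc25a3 was the clearest case of a known choice of exons. The gene (chr10:91116574-91124059, minus strand) carries a pair of alternative coding exons, 3A and 3B, which give the phosphate carrier forms A and B, form A being typical of heart and muscle. Their sequences in GENCODE M21 (GRCm38) are shown because the transcripts of the gene are told apart by them: 3A is 125 bases (chr10:91122207-91122331) and 3B is 122 bases (chr10:91121922-91122043). The last line is the 36-base end of 3A with the start of its extension in Slc25a3-202, a transcript marked for nonsense-mediated decay in which 3A runs on by 99 bases (chr10:91122183-91122218), and capitals mark its last 12 bases of 3A.
Exon 3A: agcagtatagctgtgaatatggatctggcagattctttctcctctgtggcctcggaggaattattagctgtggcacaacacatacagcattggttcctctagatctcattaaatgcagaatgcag
Exon 3B: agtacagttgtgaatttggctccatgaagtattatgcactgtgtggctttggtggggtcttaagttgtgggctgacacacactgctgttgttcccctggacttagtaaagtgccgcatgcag
Exon 3A into extension: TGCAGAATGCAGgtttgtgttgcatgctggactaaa
Transcripts with 3B, among them Slc25a3-207, which keeps an intron, held 163, 195 and 206 TPM in ATF4 BKO mice against 235 and 205 in WT mice. Those with 3A, the coding Slc25a3-206 and the extended Slc25a3-202, held 54.8, 42.1 and 63.4 against 43.7 and 59.9. Slc25a3-208, which holds both exons, was left out. So was Slc25a3-204, which keeps an intron and had 128, 118 and 118 against 171 and 161 TPM. Transcripts with 3B held more than those with 3A in every mouse. Of both together, those with 3A took 25.2%, 17.7% and 23.5% against 15.7% and 22.6%, which overlapped. This share counts the extended form and so is not the share of form A. The extended form was apart, with 24.5, 31.3 and 42.7 TPM against 20.0 and 15.4. Its share of the gene's TPM was 6.96%, 8.58% and 10.8% in ATF4 BKO mice against 4.39% and 3.55% in WT mice. Coding transcript Slc25a3-206 with 3A, in turn, had 30.3, 10.9 and 20.7 against 23.8 and 44.5 TPM, and the higher WT value was that of the mouse with the most muscle RNA.

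Some transcripts of amino acid carriers were among those whose shares did not overlap between genotypes. How often this occurred was not compared between amino acid carriers and the other carriers. Slc25a44-203, a coding transcript, took 21.8%, 25.01% and 19.9% of the gene's TPM in ATF4 BKO mice against 11.3% and 16.4% in WT mice. Slc25a44-204, also coding, took 14.2%, 9.06% and 10.5% against 18.1% and 21.2%. The moves were in opposite directions within a gene whose whole level overlapped between genotypes. Slc25a38-203, a transcript without a coding frame, took 27.0%, 29.3% and 25.2% against 15.4% and 14.01%, on 25.6 to 59.4 estimated counts per mouse. Slc25a12-205, likewise noncoding, took 14.5%, 13.7% and 15.7% against 22.3% and 24.9%, on 8.1 to 59.5 counts. Both of these therefore rested on few reads.

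Outside that group, Slc25a51-203, a coding transcript of the NAD carrier, took 13.7%, 18.4% and 9.26% against 30.1% and 21.6%, while the gene's summed CPM was 720, 744 and 832 against 752 and 766. Slc25a1-202, which keeps an intron, took 24.9%, 23.1% and 21.9% against 31.04% and 28.97%. The genotypes did not overlap for either share. No test of shares was made, and the part of muscle RNA, of sex or of the name prefix in them was not tested.

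**Figure D5:**
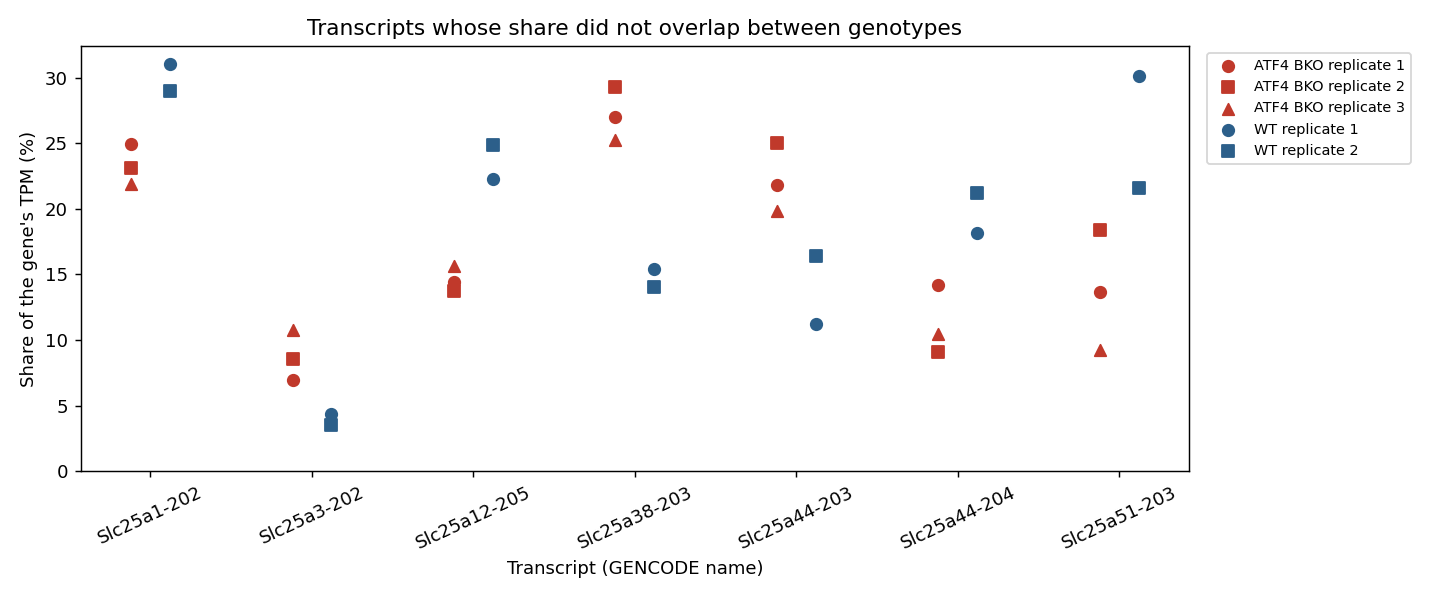
Share of the gene's TPM (percent, axis from 0) held by 7 transcripts of 6 carrier genes, in each ATF4 BKO mouse (red) and WT mouse (blue). ATF4 BKO points lie above both WT points for Slc25a3-202, Slc25a38-203 and Slc25a44-203 and below them for the other 4, which were picked from the 29 whose shares did not overlap.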

How the data were processed

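RNA from the BAT of 3 ATF4 BKO and 2 WT mice had been sequenced from stranded mRNA libraries. For each mouse the authors deposited Kallisto estimated counts per transcript, not normalized between mice (kallisto 0.45.0 and mm10 per the submitters' processing notes; the transcript annotation is not given in the sources used here). The same deposited tables hold TPM, scaled per mouse by the authors' tool to one total. The paper's aligner-based gene counts were not analysed here.

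Transcripts were matched to GENCODE M21 (GRCm38) by identifier without version, 138191 of 141450, the unmatched holding 1.158% to 1.289% of the counts, and estimated counts and TPM were summed per gene. Counts were rounded to whole numbers. Genotypes were compared with edgeR 4.0.16 (R 4.3.3) on the whole table: TMM factors, at least 10 counts in at least 2 mice (16450 genes), a quasi-likelihood test on genotype alone, Benjamini-Hochberg adjustment, threshold 0.05. Intervals are 95% t intervals on 3 residual and 3.06 prior degrees of freedom. Each library is 1 mouse, so the p-values measure the spread between these mice. DESeq2 1.42.0, the study's tool, and limma 3.58.1 on log2(TPM + 1) and log2(TPM + 0.1) were alternatives, with other scalings, no filter, each mouse left out, blocks and a muscle covariate (mean log2 CPM, 0.5 added). The fits were tried on simulated data with planted log2 changes of 3 in either direction. These exceeded every carrier's log2 fold change in the main fit, so the trial does not cover changes of that size.

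The members, roles, marker lists and tests were chosen with earlier results of these data known. Named genes were all tested amino acid carriers, other members whose CPM did not overlap between genotypes, that were called or that had an absolute log2 fold change of at least 1, and the 6 highest by TPM; 1 of these 6 is counted among the members but not reported here.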

Additional observations from a re-analysis of the deposited data

How the results depend on the processing

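No member passed the adjusted threshold in edgeR or under any of the 14 alternatives (lowest adjusted p 0.114, Slc25a13 with the muscle covariate). Of 280 alternative values for 20 named members, 254 kept their sign and 26, over 9 members, did not; the causes were not tested. DESeq2, DESeq2's size factors in edgeR and no filter turned no sign.

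The count of members lower in every ATF4 BKO mouse was 5, and was 13 with library totals alone, 16 on either TPM scale, 6 to 17 with a mouse left out (8 and 9 without ATF4 BKO replicates 2 and 3, 10 and 17 without WT replicates 1 and 2), 22 within prefix S1 and 19 within S2; all genes stood at 15.0% to 30.7% with a mouse left out, 34.7% within S1 and 53.9% within S2, beside 43 members tested. The count higher was 3, and was 0 on both TPM scales, 3 to 8 with a mouse left out (8 without ATF4 BKO replicate 2, 6 and 7 without WT replicates 1 and 2), 8 within S1 and 24 within S2, with all genes at 14.4% to 27.1%, 34.6% and 46.0%. The median log2 fold change of amino acid carriers was 0.05, and was -0.067 with library totals alone, -0.13 on log2(TPM + 1), -0.135 on log2(TPM + 0.1), -0.10 with the muscle covariate, and -0.076 to 0.18 with a mouse left out; that of the other carriers was -0.05, and was -0.16, -0.22, -0.25, -0.24, and -0.112 to 0.038 in the same order. Over all genes the medians under the first 4 of these were -0.099, -0.124, -0.169 and 0.014, so with the muscle covariate the carriers' medians moved and that of all genes stayed near 0. The muscle level separated the genotypes, so values with this covariate cannot tell muscle RNA from genotype.

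Signs turned as follows. With library totals alone, log2(TPM + 1) and log2(TPM + 0.1), Slc25a44 was -0.067, -0.13 and -0.135 and Slc25a51 -0.10, -0.33 and -0.33; on the 2 TPM scales Slc25a29 was -0.046 and -0.073. With the muscle covariate, Slc25a12 was 0.40, Slc25a29 -0.60, Slc25a38 -0.067 and Slc25a44 -0.26. With a mouse left out, values ran from -0.136 to 0.057 for Slc25a3, -0.191 to 0.025 for Slc25a15, -0.100 to 0.074 for Slc25a20, -0.237 to 0.166 for Slc25a22, -0.193 to 0.551 for Slc25a29, -0.076 to 0.180 for Slc25a44 and -0.050 to 0.055 for Slc25a51.

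With the replicate number as a block, the medians were -0.016 and -0.058, 0 members were called, and Slc25a29 (-0.016) and Slc25a51 (-0.052) turned sign. The labels share only the number: deviations of mice with the same number correlated at 0.0353 and 0.214 over genes, for 2 pairs. With 2 WT mice, intervals are wide for low or variable carriers.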
